A study of Dicentrarchus labrax with 8 samples.

Results

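Levels of 4 transcripts that encode or bind secreted regulatory peptides were examined in testes of European sea bass (*Dicentrarchus labrax*) at the start of spermatogenesis. They are agouti-related protein 2 (*agrp2*), secretogranin II (*sgII*), the target given the symbol *adcyap1*, and *igfbp6*, which encodes a binding protein for insulin-like growth factors. They were chosen from 11705 targets on the array because the study listed them as changed between stage I and stage II on these same arrays. The stage contrast had therefore chosen them, and it is given here as a description with no test. Signals of *agrp2*, *sgII* and *adcyap1* were lower in all 3 stage II pools than in any stage I pool, with mean differences of 3.11-fold, 2.28-fold and 2.92-fold. The signal of *igfbp6* was higher in all 3 stage II pools, by 3.77-fold. In stage II pool 1, though, only 2 of 6 spots were well above background for *agrp2*, and only 1 of 6 for *sgII* and for *igfbp6*. Among all 9020 targets tested, 39.3% had stage II pools that lay entirely below the stage I pools and 22.4% had stage II pools entirely above, so the absence of overlap alone did not set these genes apart. A mean difference of over 2-fold was rarer, at 8.26% of targets for lower and 1.96% for higher signal in stage II. Both shares are given as background only, because the same contrast selected the genes.

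Agouti-related proteins are secreted antagonists of melanocortin receptors, which signal through cyclic AMP. In mammals the protein is best known from the hypothalamic control of feeding, and teleosts carry *agrp2* as a further copy. Secretogranin II belongs to the granins, acidic proteins stored in the granules of endocrine and nerve cells. It is cleaved to secretoneurin, a peptide that stimulates luteinizing hormone release in goldfish. Pituitary adenylate cyclase-activating polypeptide (PACAP), the product of *adcyap1*, raises cyclic AMP through its receptors and is made in germ cells of the mammalian testis. Insulin-like growth factor (IGF) binding proteins hold IGFs in the extracellular space, and in mammals IGFBP6 prefers IGF2.

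For 3 of the transcripts, the primers that the study designed for its quantitative PCR are printed. They are written 5′ to 3′ and were not part of the array. Primers were not aligned to the array targets and the probe sequences were not used, so the primers do not show what the targets measure. By quantitative PCR the study reported lower *agrp2* and *sgII* in stage II and no change in *igfbp6*.
agrp2 forward: gggcagaggacacaaagaaa
agrp2 reverse: tgtgactttcctgtggtgga
sgII forward: acgaggtgaccacctacctg
sgII reverse: cgtacagctcgtaggggaac
igfbp6 forward: ccaactgaaaacgtccaaacg
igfbp6 reverse: ggcgtcaagacctttgataagtgta
No primer pair was found for *adcyap1*. On the array, *agrp2* is target SeabassC-CL2140Contig1, *sgII* is SeabassC-CL821Contig1, *igfbp6* is cDN32P0003M22.F.ab1 and *adcyap1* is cDN22P0004C10.F.ab1. The study's gene list pairs the symbol *adcyap1* with a description of a PACAP receptor, so whether this target measures the peptide or its receptor is not settled, and the symbol is kept here as a label. Genome positions were not analysed, because 0 of the target names matched the supplied sea bass gene table.

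Testes came from untreated males sampled before their second breeding season and staged by histology and plasma 11-ketotestosterone. Stage I is the immature testis, whose germ cells are undifferentiated spermatogonia. By stage II, differentiating spermatogonia divide in cysts and a few germ cells have entered meiosis. Each stage was represented by 18 males, pooled by 6 into 3 RNA samples, so a pool averages over fish and the spread between fish cannot be seen. Pool 3 of each stage was hybridized on both plates, P36 and P37, while the other stage I pools lay on P36 and the other stage II pools on P37. The pool is the replicate throughout, with the repeated arrays of pool 3 averaged. Levels are on a log2 scale on which 0 marks the 75th percentile of the spots of an array and negative levels lie below it.

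Between 60.2% and 86.7% of spots were well above background on an array, and the array of stage II pool 1 had the lowest share. The lowest level that counted as well above background was -3.57 on that array and between -4.91 and -6.25 on the other 7. Across all tested targets, 6.41% were called lower and 1.72% higher in stage II (limma, adjusted p under 0.01 and a fold over 2), and the median difference was -0.14.

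**Figure D1:**
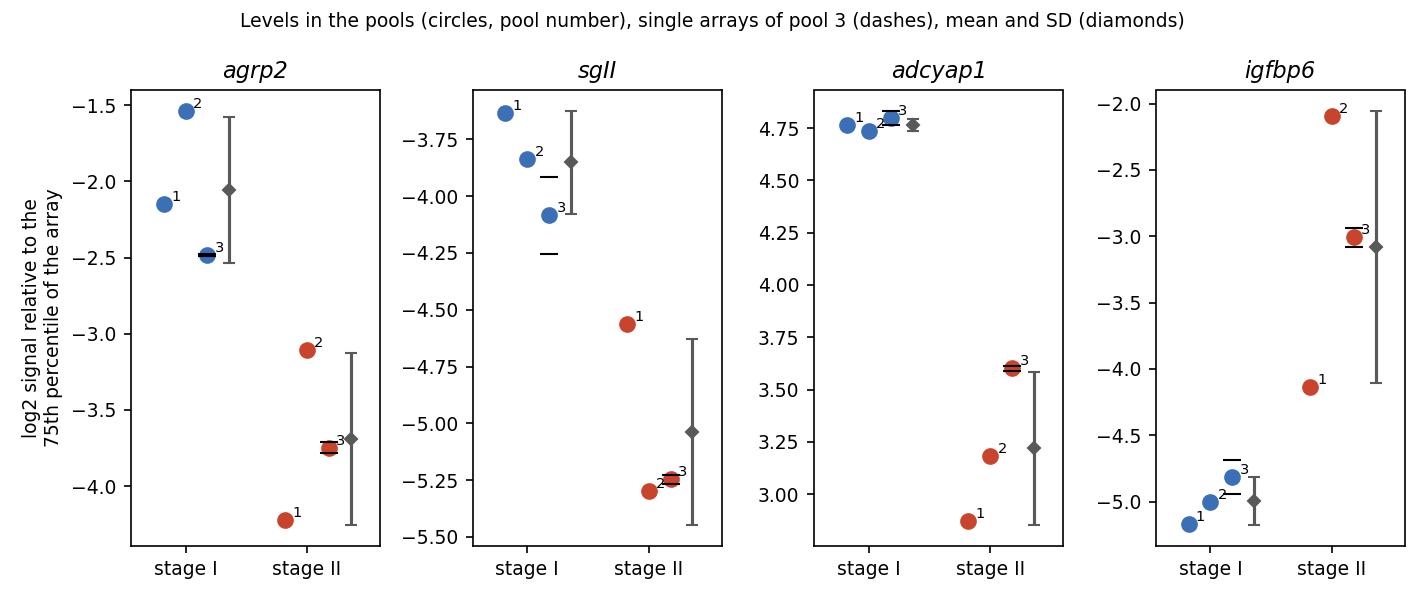
Level of each gene in every pool (circles, labelled with the pool number), with the single arrays of pool 3 as dashes and the mean ± SD of the 3 pools of a stage as diamonds, on a log2 scale with 0 at the array's 75th percentile and with a separate vertical range for each gene. The stages do not overlap for any of the 4 genes, and the stage II pools of *igfbp6* spread over 2.04 log2 units. In stage II pool 1 the levels of *agrp2*, *sgII* and *igfbp6* lay below the lowest level well above background on that array (-3.57).

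The *agrp2* signal stood at -2.15, -1.54 and -2.48 in stage I pools 1 to 3. In stage II the levels were -4.23, -3.10 and -3.75. All stage II pools were below all stage I pools, and the closest pair, stage II pool 2 and stage I pool 3, was 0.62 apart. The mean was -2.06 ± 0.48 in stage I and -3.69 ± 0.56 in stage II (SD, n = 3), a difference of -1.63 on the log2 scale. Depending on which pools were paired, the difference ran from -2.69 to -0.62. Its stage I pools were spread more widely than those of most targets, with an SD above that of 97.7% of tested targets and a median over all targets of 0.11. In each stage pool 2 was the highest, although pools of the same number held different fish.

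Array probes for *agrp2* gave similar differences of -1.60 (probe 3421), -1.53 (probe 3422) and -1.78 (probe 3423). Each probe was spotted in duplicate, and none of the 24 pairs of spots differed by more than 0.59. All 24 stage I spots were well above background, as were 18 of 18 spots in stage II pools 2 and 3. On the array of stage II pool 1 only the 2 spots of probe 3421 reached this mark, so the level of -4.23 there partly reflects signal that was not well above background. That level lay below -3.57, the lowest level well above background on the array. Probe 3421, the only one detected above background on all 8 arrays, had -3.19 in that pool against -2.50 and -3.09 in the other stage II pools. By this probe alone stage II pool 1 lay close to stage II pool 3.

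Secretogranin II gave levels of -3.63, -3.84 and -4.08 in stage I pools 1 to 3. The stage II levels were -4.56, -5.30 and -5.25. Stage II pool 1 was the nearest to stage I, at 0.48 below the lowest stage I pool. The level of pool 1 lay below -3.57, the lowest level well above background on its array, so its separation from stage I is uncertain. The mean was -3.85 ± 0.23 in stage I and -5.04 ± 0.41 in stage II (SD, n = 3), a difference of -1.19. Its size rests on stage II signals that were often not well above background, as given below, and the order of the 4 genes by size of difference changed with the setting.

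The probes of *sgII* did not give a single size for this difference. Probe 7939 differed by -1.69, probe 7941 by -1.27 and probe 7940 by -0.60, which is 1.52-fold. With probe 7940 the stage II pools were nearly identical, at -4.24, -4.28 and -4.27, and still below the stage I pools at -3.42, -3.77 and -3.80. With probe 7941 the stages overlapped, because stage II pool 1 stood at -4.17, above stage I pools 2 and 3 at -4.24 and -4.41. That value came from a single spot. The duplicate spots of probe 7941 on this array read -2.47 and -5.86, a gap of 3.39, where the median gap between duplicate *sgII* spots was 0.23. The brighter spot was the only 1 of 6 *sgII* spots well above background on the array, and the software had not marked it as an outlier. When it was left out, stage II pool 1 moved to -5.13, the stage II mean to -5.23 ± 0.09 (SD, n = 3) and the difference to -1.37, or 2.59-fold. This removal was chosen after the spot values were seen.

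Detection was uneven between the stages for *sgII*. All 24 stage I spots were well above background, against 11 of 24 in stage II. The loss was spread over the stage II arrays, with 3 of 6 spots well above background in pool 2 and 4 of 6 and 3 of 6 on the P36 and P37 arrays of pool 3. None of the *sgII* probes was detected above background on all 8 arrays. The stage II level is therefore close to the limit of the array.

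**Figure D2:**
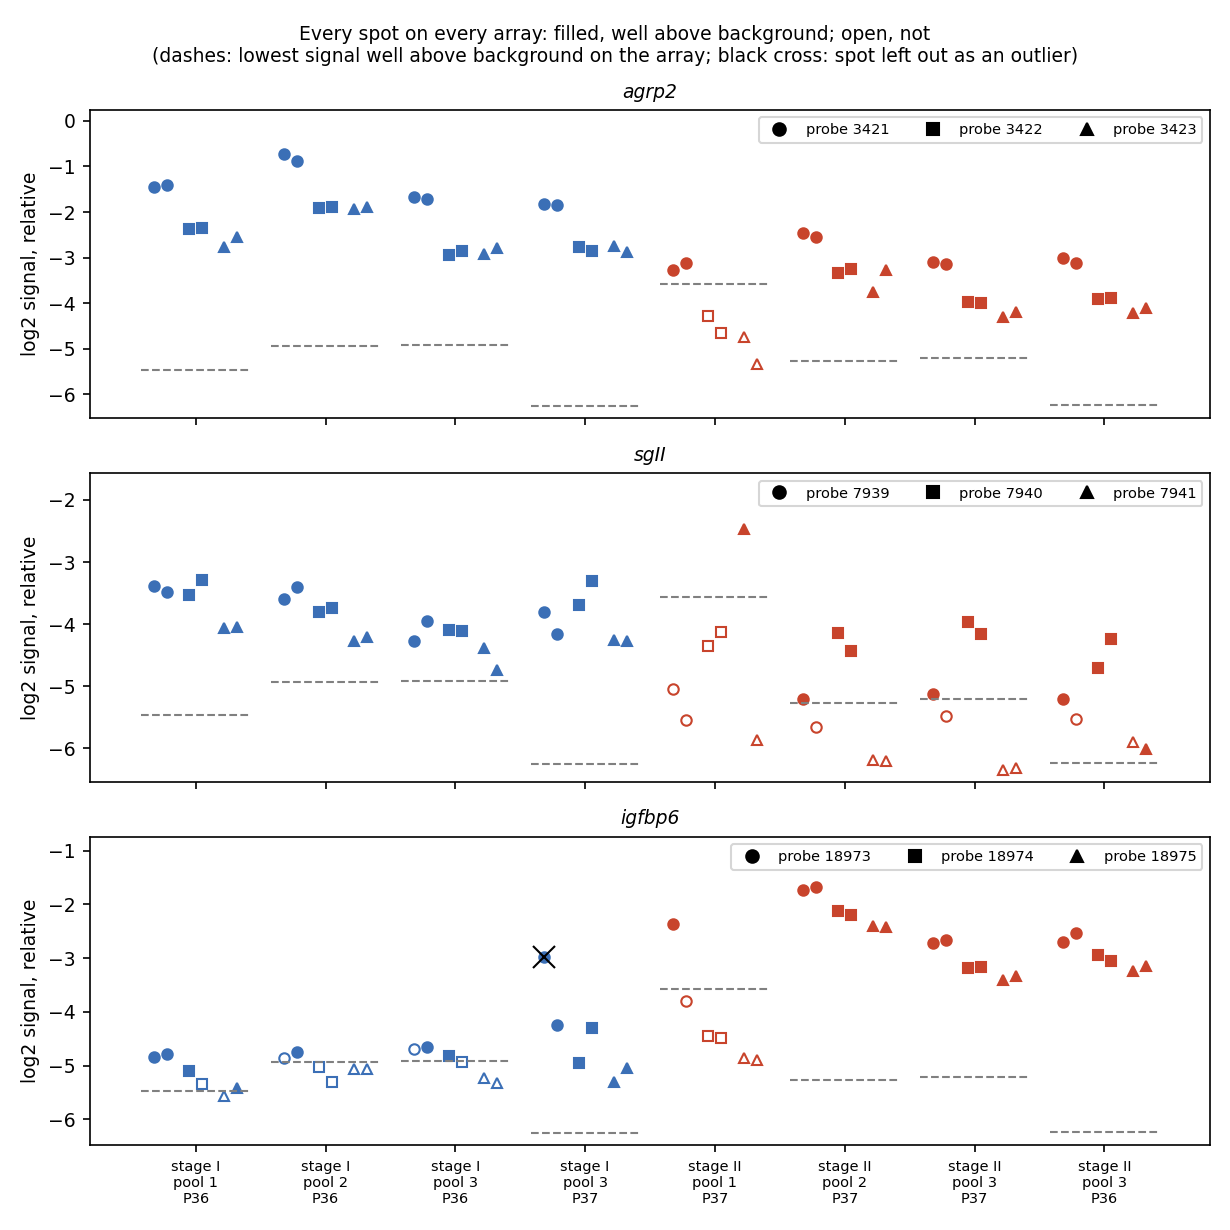
Level of every spot of *agrp2*, *sgII* and *igfbp6* on each of the 8 arrays (log2, 0 at the array's 75th percentile), with stage I in blue, stage II in red, filled symbols for spots well above background and open symbols for the others. Dashed lines mark the lowest level well above background on the array, at -3.57 for stage II pool 1, where 1 *sgII* spot at -2.47 stands far from its duplicate at -5.86, and a black cross marks the spot left out as an outlier.

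The target labelled *adcyap1* was bright in every pool. Its levels were 4.76, 4.74 and 4.80 in stage I pools 1 to 3. In stage II they were 2.87, 3.18 and 3.60. Stage I pools were almost alike and the stage II pools spread over 0.73, with a gap of 1.14 between the stages. The mean was 4.77 ± 0.03 in stage I and 3.22 ± 0.37 in stage II (SD, n = 3), a difference of -1.55. Only 5.53% of tested targets had a smaller SD than this one in stage I, while 87.6% had a smaller SD in stage II. All 48 spots were well above background, none was saturated, and duplicates differed by at most 0.17. Differences by probe were -1.54 (probe 328), -1.61 (probe 329) and -1.49 (probe 330), and each probe gave the order pool 1, pool 2, pool 3 from lowest to highest in stage II.

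On the array *igfbp6* differed in the opposite direction, whereas the study's quantitative PCR found no significant difference, as given above. Stage I pools 1 to 3 gave -5.17, -5.01 and -4.81. The stage II levels were -4.14, -2.10 and -3.01. Stage II pool 1 was closest to stage I, at 0.67 above the highest stage I pool, and pool 2 was the highest of all. The level of pool 1 lay below -3.57, the lowest level well above background on its array. Whether that pool differed from stage I is therefore uncertain. The mean was -5.00 ± 0.18 in stage I and -3.08 ± 1.02 in stage II (SD, n = 3), a difference of 1.92. Pair by pair it ran from 0.67 to 3.08. With probe 18973 alone, the only one that passed the filter on dim probes, the stage II SD was 0.70. In stage II pool 1 this probe stood at -3.08, against -4.46 and -4.87 for probes 18974 and 18975. Its value there rests on a bright spot, described below.

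Detection of *igfbp6* also varied between the pools. In stage II pools 2 and 3 all 18 spots were well above background, whereas in pool 1 a single spot of 6 was. That spot, of probe 18973, read -2.36 and its duplicate -3.79. Without it the pool moved to -4.38 and the difference to 1.84, a removal also chosen after the values were seen. Leaving out stage II pool 1 altogether gave a difference of 2.44, and leaving out pool 2 gave 1.42. In stage I 13 of 24 spots were well above background, with 4 of 6 in pool 1, 1 of 6 in pool 2, and 2 of 6 and 6 of 6 on the P36 and P37 arrays of pool 3. The stage I level thus lay near the limit of detection, and the size of the difference depended on how background was handled. With normexp background correction in place of the processed signal it was 0.82, which is below 2-fold. That setting also adds an offset of 50 to every signal, which by itself shrinks differences between dim signals. The part of the offset was not tested. Probes 18973, 18974 and 18975 differed by 2.21, 1.81 and 1.73, and only probe 18973 was detected above background on all arrays of a stage.

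**Figure D3:**
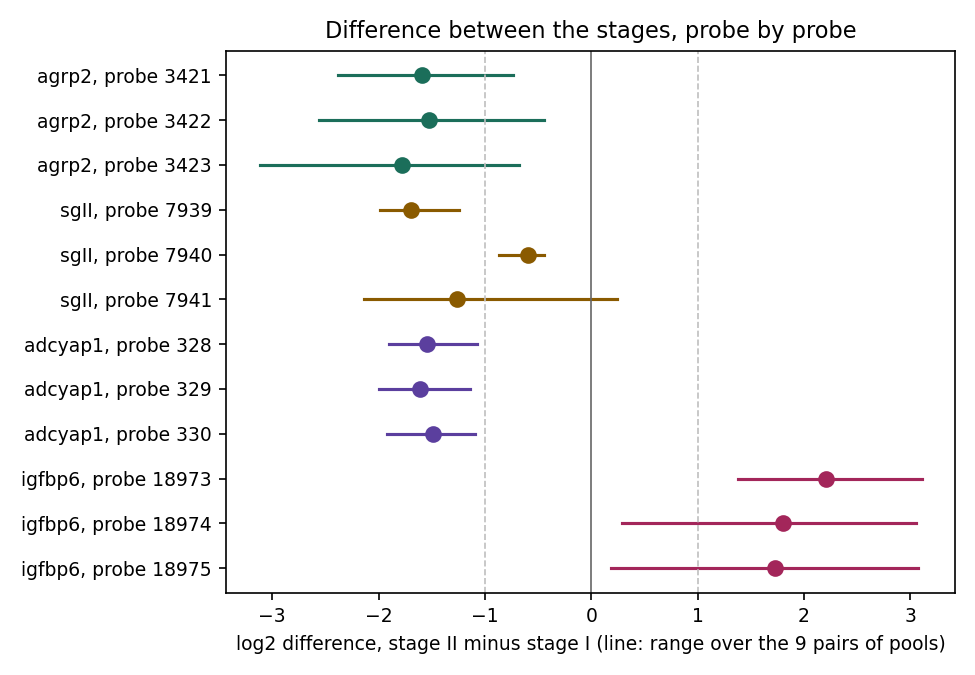
Log2 difference between the stages (stage II minus stage I) for each of the 12 probes, with points for the difference of the means of 3 pools and lines for the range over the 9 pairs of pools. Dashed lines mark a 2-fold difference, and the range crosses 0 for sgII probe 7941 alone.

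Most stage I pools lay on P36 and most stage II pools on P37. A plate effect could therefore have entered the contrast that chose the genes. The repeated arrays of pool 3 were used to examine the plate. On both plates *agrp2* read alike, at -2.48 and -2.49 in stage I pool 3 and at -3.71 and -3.79 in stage II pool 3. For *adcyap1* the repeats were 4.76 and 4.83 in stage I and 3.59 and 3.61 in stage II. These repeats were closer together than the pools of stage II. For *adcyap1* in stage I, though, the repeats were 0.07 apart, against a range of 0.06 over the stage I pools. Stage I pool 3 gave the largest gaps between plates, of 0.34 for *sgII* and 0.26 for *igfbp6*, and both were higher on P37. In stage II pool 3 the gaps were 0.04 and -0.14. The plate effect with stage as a term and pool as a random block (limma) was -0.08 ± 0.17 for *agrp2*, 0.17 ± 0.13 for *sgII*, 0.00 ± 0.10 for *adcyap1* and 0.21 ± 0.19 for *igfbp6* (estimate ± SE). None of the 4 passed the test, with limma adjusted p of 0.986, 0.842, 0.999 and 0.896 and unadjusted p between 0.22 and 0.973. The fit used only probes that passed the filter on dim probes. Its *igfbp6* estimate is therefore for probe 18973 alone, whereas the repeats above average all 3 probes. Over 8995 targets 0.0111% were called for plate, and 7.48% had an unadjusted p under 0.05.

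Comparisons made inside a plate, which set 3 pools of a stage against the single array of pool 3 of the other, kept the direction of all 4 genes. The same arrays had chosen the genes and their pools did not overlap, so the direction had little room to change. It is a description and no test of the plate. On P36 the differences were -1.65 for *agrp2*, -1.36 for *sgII*, -1.17 for *adcyap1* and 2.10 for *igfbp6*. On P37 they were -1.22, -1.12, -1.61 and 1.58 in the same order. The lower *adcyap1* value on P36 rests on stage II pool 3, which was the stage II pool nearest to stage I.

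Other named targets were ranked by how closely their level followed each gene over the 6 pools. Pearson's r is given as a description of 149 candidates, all from the study's list of changed genes, so the split between stages alone makes r high. The *agrp2* pattern was matched best by *klk* (kallikrein, r = 0.97), *stl2* (r = 0.96) and *rbp4*, a carrier of retinol in blood (r = 0.96). Both *klk* and *rbp4* put the 6 pools in the same order as *agrp2* (Spearman's rho = 1). For *sgII* the closest were *klhl38* (r = 0.96), *stat3* (r = 0.95) and *nme1* (r = 0.95), and *klhl38* shared its order of pools. In stage II pool 1 *klhl38* (-5.65), *stat3* (-5.56) and *sgII* (-4.56) lay below -3.57, the lowest level well above background on that array. The likeness to *sgII* thus includes signal that was not well above background. The *sgII* level in that pool also rests in part on the single bright spot described above. Without that spot the level was -5.13, and no r is given for that case. The pattern of *adcyap1* was followed by *nt5e*, an ecto-enzyme that makes adenosine (r = 0.998), *rab6a*, a small GTPase of Golgi transport (r = 0.995), and *sqt*, a nodal-related signal (r = 0.994). These 3 differed between the stages by -1.56, -1.57 and -1.49, close to the -1.55 of *adcyap1*. The likeness to *igfbp6* was weaker, with *cenpi*, a centromere protein, at r = 0.95, *depdc1b* at r = 0.92 and *atp6v0e1* at r = 0.91. In stage II pool 1 only 2 of 6 *agrp2* spots and 1 of 6 *igfbp6* spots were well above background. The likenesses to *agrp2* and *igfbp6* thus also include signal that was not well above background.

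Genes of the pathways around these 4 were then considered. Of 69 related symbols, 19 had a target under that name. Names came only from the study's list of genes changed between the stages on these arrays, so these genes were chosen by the same contrast and their differences are descriptions too. Of the 18 with a value, 16 were lower and 2 higher in stage II, and all 18 passed the thresholds given above. The choice of names had favoured such a count. Beside the 6.41% and 1.72% over all targets nothing can be read from that count. Only 9 of the 18 had a probe detected above background on all 8 arrays (*igfbp5*, *socs3*, *rims1*, *synpo*, *tmem35*, *amh*, *sdf1a*, *q2laq1* and *tgfbr1*), and the others entered through the stage with the higher signal. For the melanocortin system, the PACAP family and steroid synthesis, 0 other symbols could be paired with a target.

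In the IGF axis *igfbp5* was lower in stage II, whereas *igfbp6* was higher. Its mean was -3.04 ± 0.13 in stage I and -4.36 ± 0.18 in stage II (SD, n = 3), a 2.51-fold difference. Its pools ranged from -3.16 to -2.91 in stage I and from -4.56 to -4.21 in stage II. IGFBP5 is a matrix-associated binding protein in mammals. No other IGF, IGF receptor or binding protein on the list had a named target. Downstream of cytokine and growth hormone receptors, the transcription factor *stat3* differed by -1.30 (SE 0.16) and the feedback inhibitor *socs3* by -1.49 (SE 0.13).

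Among genes of regulated secretion, only *rims1*, which primes vesicles at release sites in neurons, had a named target besides *sgII*. Its mean was -4.91 ± 0.09 in stage I and -3.05 ± 0.17 in stage II (SD, n = 3), 3.63-fold higher, whereas the *sgII* signal was lower. With normexp the *rims1* difference was 0.63 in place of 1.86. Of 6 nerve and synapse genes with a value, *rims1* included, 4 were lower and 2 higher. The neurofilament *nefh* differed by -1.33, the secreted glycoprotein *olfm1* by -1.37, the actin-associated *synpo* by -1.64 and the mitochondrial *gdap1* by -1.58. The other gene with higher signal was *tmem35*, at 1.17. The brain proteoglycan *bcan* had a target but no probe that passed the filter.

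Other secreted signals on the list were all lower in stage II. Anti-Müllerian hormone (*amh*), made by Sertoli cells, had a mean of 0.53 ± 0.26 in stage I and -0.66 ± 0.30 in stage II (SD, n = 3), a 2.28-fold difference. The hedgehog ligand *ihh* differed by -1.96, the chemokine *sdf1a* by -1.66, the epidermal growth factor family member *epgn* by -1.94, *sqt* by -1.49 and *q2laq1* by -1.49. Among receptors and their partners the thyroid hormone receptor *thrb* differed by -1.74, the TGF-β receptor *tgfbr1* by -1.79 and the calcium-dependent kinase *camk2d* by -1.78. With no filter on dim probes the differences of *sdf1a* and *camk2d* were -0.74 and -0.93, below 2-fold.

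**Figure D4:**
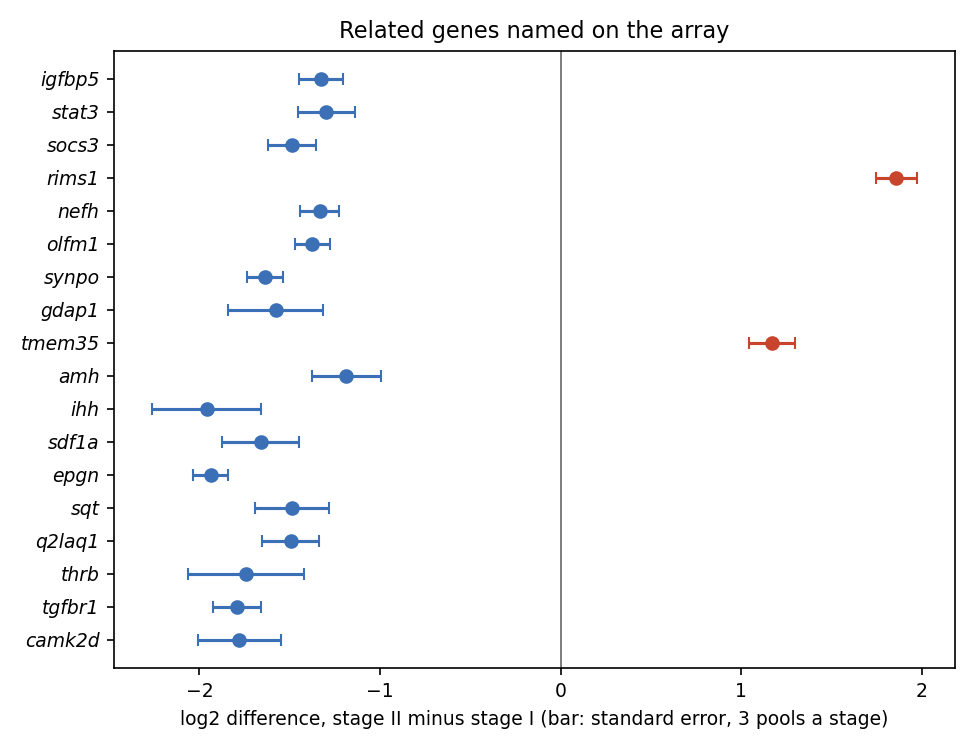
Log2 difference between the stages (stage II minus stage I) of the 18 related genes with a value, with bars for the standard error from limma over 3 pools a stage. Blue points are lower and red points higher in stage II, and *rims1* and *tmem35* are the genes on the right.

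Markers of other cells differed between the same pools. They too could be named only from the study's list of changed genes, so their differences are descriptions and no test of them is read as a result. All 3 spermatocyte markers (*dmc1*, *sycp2*, *syce1*) and all 4 of dividing cells (*pcna*, *mcm3*, *cdc28*, *aurkb*) were higher in stage II. The mean level of the spermatocyte list ran from -0.15 to 0.09 in stage I and from 1.27 to 1.71 in stage II. The list for dividing cells ran from -0.81 to -0.53 and from 0.84 to 1.14. Connective tissue markers (*mgp*, *ogn*, *lox*, *lrrc17*) were lower, with mean levels of -0.99 to -0.81 in stage I and -3.11 to -2.52 in stage II. Both muscle markers (*mustn1*, *klhl38*) were lower, with mean levels of -2.00 to -1.51 and -4.19 to -3.94. The 2 nerve markers with a value (*nefh*, *olfm1*) were also lower, with means of -3.53 to -3.40 and -4.99 to -4.74. Like *klhl38* and *ogn*, neither had a probe detected above background on all 8 arrays. Among the other nerve and synapse genes given above, *synpo* and *gdap1* were lower, whereas *rims1* and *tmem35* were higher. Of immune and complement genes *c4a* and *q2laq1* were lower and *hck* higher, by 1.14, or by 0.31 with normexp and 0.77 with no filter on dim probes. Their list means were -0.59 to -0.49 and -1.44 to -1.29. The Sertoli cell marker *amh* is given above. The part of these shifts in the levels of the 4 genes was not tested. In whole testis, fewer cells of a type and less RNA per cell cannot be told apart.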

How the data were processed

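Testis RNA was hybridized to single-colour Agilent arrays of sea bass transcripts. Per the file headers, the deposited intensity values were extracted by the authors with Feature Extraction, as background-subtracted processed signals without scaling between arrays; the labels name version 10.4 and the headers 10.7.3.1. The authors also deposited log2 values of the same spots, unscaled, which served as an alternative only. The level of a target is the log2 of the processed signal minus the 75th percentile of the 43803 non-control spots of its array, as in the study's methods. Spots marked as outliers were left out, duplicate spots were averaged, then the probes of a target, dim probes included. The precision of an array is set by signal over background.

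The test across targets used probes that were well above background throughout 1 stage or both (18280 of 24200 probes, 9020 targets, 14 of them joined features of a shared name), with limma 3.58.1 in R 4.3.3 (lmFit and eBayes) and Benjamini-Hochberg adjustment. Calls needed an adjusted p under 0.01 together with a fold over 2. The plate was fitted over the 8 arrays with stage as a term and pool as a random block (duplicateCorrelation, 0.779). The steps were tested on simulated data.

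The genes named are the 4 genes with all their probes, every gene of fixed related and marker lists that the study's gene list pairs with a target, and the 3 named targets closest to each gene by Pearson's r. These genes and lists were chosen with earlier results of these data known. Alternatives covered background correction, scaling, the deposited values, filters, probes, outlier spots, plates, a replicate block, the methods' t-test and leaving out each pool. The background correction was normexp on the median signals with an offset of 50.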

Additional observations from a re-analysis of the deposited data

How the results depend on the processing

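The direction of each gene held under all alternatives run, 25 each for *agrp2*, *sgII* and *adcyap1* and 26 for *igfbp6*. The differences ran from -1.93 to -1.17 for *agrp2*, from -1.69 to -0.60 for *sgII*, from -1.74 to -1.08 for *adcyap1* and from 0.82 to 2.44 for *igfbp6*. The value moved by more than the spread between pools for *igfbp6* with normexp (0.82), for *adcyap1* with the deposited log2 values (-1.08) and within plate P36 (-1.17), and for *sgII* with probe 7939 (-1.69) or 7940 (-0.60) alone. The filter for detection on all 8 arrays left no *sgII* probe and gave no value. Leaving out a pool gave -1.93 to -1.37 for *agrp2*, -1.42 to -1.05 for *sgII*, -1.74 to -1.37 for *adcyap1* and 1.42 to 2.44 for *igfbp6*. The median of all spots, the dimmer spot of each probe and the removal of a bright spot were chosen after seeing the data.

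Of all targets, 733 were called between the stages, 21.1% of them higher. The count was 138 with normexp, 456 with no filter on dim probes, 433 with only the probes detected on all 8 arrays, and 83 with the methods' t-test after Benjamini-Hochberg (604 before). Leaving out a pool gave 268 to 916, with 385 without stage I pool 1 and 268 without stage I pool 2. The share called higher was 37.8% with median scaling, 38.7% with quantile normalization, 34.1% with normexp and 90.4% with the deposited values, where the median difference of all targets was 0.33. The causes were not tested. No listed gene changed direction under the 16 alternatives, but these genes too had been chosen by the stage contrast. All 18 related genes passed, as their choice had favoured. Of these, 4 passed with normexp, 7 with the deposited values, 12 with no filter and 5 with the methods' t-test after adjustment. With the replicate block 15 passed, and 10 to 18 with a pool left out. Of 15 further marker genes 14 passed, 9 with normexp, 3 with the adjusted t-test, 14 with the replicate block and 12 to 15 with a pool left out. The markers too were named only from the study's list of changed genes. Beside the counts over all targets given above, nothing can be read from theirs. With normexp *klhl38* differed by -2.04 in place of -3.18. Pool numbers do not mark shared fish, and same-numbered pools did not deviate together (correlations -0.004, -0.003 and -0.059). With the pool number as a replicate block 503 targets were called. Each stage had 1 pool of each number, so the block cannot change the differences of the 4 genes (-1.63, -1.19, -1.55 and 1.92).

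For the plate, 1 target was called, and 0 with normexp, with the deposited values, with no filter, or without stage I or stage II pool 1. The plate difference of *adcyap1* changed sign with the median (-0.0343), quantile normalization (-0.00977), normexp (-0.0487), the deposited values (-0.0910) and no filter (-0.0116), as did that of *agrp2* with normexp (0.18). The adjusted p of the plate tests was between 0.416 and 1 under these settings (limma). Dim signal limits *igfbp6* in stage I and *sgII* in stage II most.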
